A study of Mus musculus with 211 samples.

Results

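Mmp8, Mmp9, Retnlg, Mmp25, Adam8 and Padi4 are 6 of the 48709 genes counted in single GFP-positive cells from the adult mouse cochlea, and they were found in the table by their Ensembl identifiers. They encode proteins of late neutrophil granules and of the mature neutrophil, and they were selected on their levels in these cells, which were already known. Their levels and shares of cells are therefore given as a description. The cells came from cochleae of CD1 mice carrying the Lfng-EGFP transgene, in which EGFP follows the gene Lfng and marks cochlear supporting cells. All 211 cells passed the same GFP sort and came from 8 captures at postnatal day 60 (P60) and 4 captures at P120, with the same strain and transgene at both ages. A capture was 1 microfluidic chip loaded with cells pooled from several mice, and the libraries, 1 for each cell, held full-length cDNA with no molecular identifiers.

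Neutrophils fill their granules in sequence as they mature. Primary granules with myeloperoxidase and elastase come first, specific granules with lactoferrin, Ngp (neutrophilic granule protein) and Camp (cathelicidin) follow, and gelatinase granules are made by the nearly mature cell, which then leaves the bone marrow and can make cytokines such as Il1b (interleukin-1 beta). Mmp8 (neutrophil collagenase), Mmp9 (gelatinase B) and Mmp25 (leukolysin, anchored in the membrane) are matrix metalloproteinases, Adam8 is a membrane protease that sheds cell surface proteins, Retnlg (resistin-like gamma) is a small secreted protein of mouse myeloid cells, and Padi4 converts arginines of histones to citrulline before chromatin is released from the cell.

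The labels call the cells supporting cells. In the sum over all cells, 8 neutrophil markers, Retnlg among them, reached 98189 CPM (reads of a gene, scaled to the same total of reads on genes, 1000000), against 337 CPM for 11 supporting cell markers. Most of the neutrophil sum came from S100a9 (50356 CPM) and S100a8 (37058 CPM). Lfng had a read in 120 cells, and 2 of 164 cells with at least 50000 reads on genes held 10 reads of at least 3 supporting cell markers, both from 1 capture. By the same rule, 153 of the 164 cells held at least 3 of the 8 neutrophil markers. Capture 21c alone, at P60, summed to 13073 CPM of the supporting cell markers, while the P120 captures summed to between 22.4 and 75.9 CPM. A cell had between 41 and 5361476 reads on genes (median 736455), and capture 10c, at P60, had a median of 451 reads over 13 cells. No 2 cells had identical counts. Correlations and thinned shares used the 164 deeper cells, 80 from P60 and 84 from P120.

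The genes lie apart in the genome, each on a chromosome of its own, with positions given for GRCm38. Mmp8 (ENSMUSG00000005800.2) is at chr9:7558456-7568485 and Mmp9 (ENSMUSG00000017737.2) at chr2:164940780-164955850, both on the plus strand. Retnlg (ENSMUSG00000022651.5) is at chr16:48872621-48874496 on the plus strand. Mmp25 (ENSMUSG00000023903.7) is at chr17:23628311-23645277, Adam8 (ENSMUSG00000025473.16) at chr7:139978932-139992562 and Padi4 (ENSMUSG00000025330.6) at chr4:140745865-140774236, all on the minus strand. Adam8 overlaps Gm16201 on the other strand, which had 152 reads against 59102 of Adam8, and counts made without strand cannot tell such reads apart.

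Promoters were taken from RefSeq (GRCm38.p6) for Mmp8, Retnlg, Padi4, Adam8 and Mmp25, 5 of the 6 genes. Those of Mmp8 and Retnlg, the pair whose levels were most alike across cells, and of Padi4, the gene with the opposite relation to Il1b, are shown for the 250 bases before the start, 5′ to 3′ on the gene's strand. They lie at chr9:7558179-7558428 on the plus strand, at chr16:48872358-48872607 on the plus strand and at chr4:140774204-140774453 on the minus strand. Capitals mark matches, on either strand, to the C/EBP motif TTGCNNAA, the PU.1 motif GAGGAA and the TATA box TATAAA. C/EBP and PU.1 are transcription factors of the granulocyte lineage.
Mmp8 promoter: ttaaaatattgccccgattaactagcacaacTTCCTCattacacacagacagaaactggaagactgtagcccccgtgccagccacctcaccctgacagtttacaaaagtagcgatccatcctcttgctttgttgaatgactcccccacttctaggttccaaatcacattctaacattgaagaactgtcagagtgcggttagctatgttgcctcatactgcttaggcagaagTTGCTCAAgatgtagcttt
Retnlg promoter: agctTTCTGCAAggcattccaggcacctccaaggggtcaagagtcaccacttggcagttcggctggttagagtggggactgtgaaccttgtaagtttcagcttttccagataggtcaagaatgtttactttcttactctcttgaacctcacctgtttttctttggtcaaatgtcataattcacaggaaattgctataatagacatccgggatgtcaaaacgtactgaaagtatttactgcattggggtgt
Padi4 promoter: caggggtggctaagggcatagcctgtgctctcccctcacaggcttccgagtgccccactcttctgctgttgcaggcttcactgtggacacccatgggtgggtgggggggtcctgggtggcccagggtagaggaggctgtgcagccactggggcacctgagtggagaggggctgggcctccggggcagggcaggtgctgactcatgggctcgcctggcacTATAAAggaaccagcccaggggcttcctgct
Mmp8 had a C/EBP match 19 to 12 bases before its start and a PU.1 match on the other strand. Retnlg had a C/EBP match on the other strand, 246 to 239 bases before its start. Padi4 had a TATA box match 31 to 26 bases before its start and neither of the other letters in this window. Adam8, not shown, had a C/EBP match 219 to 212 bases before its start with the letters TTGCTCAA, which are also those of the Mmp8 match, and Mmp25 had a PU.1 match. Over the 32851 promoters of the RefSeq table, cut to the same 250 bases, 9.56% held the C/EBP motif, 23.3% the PU.1 motif and 12.4% the TATA box, and none of the matches overlapped another.

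Retnlg was the most abundant of the 6 genes and Mmp25 the least. Divided by the length of their exons, the levels summed over all cells were 13731 CPM per kb for Retnlg, 745 for Mmp8, 234 for Mmp9, 57.9 for Adam8, 14.5 for Padi4 and 3.40 for Mmp25. Retnlg was above Mmp8 per kb in 12 of 12 captures. Mmp8 and Mmp9, next to each other in this order, differed by 0.44 ± 2.98 in log2 CPM per kb (SD, n = 12 captures), less than the spread between captures, with Mmp8 higher in 10 of the 12. The step from Adam8 to Padi4 was 2.67 ± 3.51, with Adam8 higher in 10 of 12 captures, while those from Mmp9 to Adam8 (2.67 ± 2.54) and from Padi4 to Mmp25 (1.87 ± 1.52) were slightly larger than 1 SD, with Mmp9 above Adam8 in 10 captures and Padi4 above Mmp25 in 9 and below it in 0.

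The share of cells with a read followed depth as well as level. Retnlg had at least 1 read in 197 of 211 cells (93.4%, exact Clopper-Pearson 95% interval 89.1 to 96.3%), Mmp8 in 168, Mmp9 in 160, Adam8 in 112, Padi4 in 62 and Mmp25 in 28. Many of these cells held few reads, and 70 of the 168 cells with Mmp8 had 1 to 9 reads of it. After each of the 164 deeper cells was thinned at random to 50000 reads, the shares with a read were 74.4% for Retnlg, 62.2% for Mmp9, 55.5% for Mmp8, 35.98% for Adam8, 17.7% for Padi4 (12.2 to 24.4%) and 7.32% for Mmp25 (3.84 to 12.4%). The intervals cover counting error only. At this depth 29 cells had none of the 6 genes, 39 cells had 3 of them and 3 cells had all 6.

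Within the cells that had a gene, a few held most of its reads. The 10 cells with the most reads held 51.5% of all Retnlg reads, 57.5% of Mmp9, 68.8% of Mmp8, 78.2% of Adam8, 85.02% of Padi4 and 93.8% of Mmp25. A single cell of capture 40, at P60, held 47.3% of all Padi4 reads and 31.2% of all Mmp25 reads, at 2800 CPM of Padi4 and 475 CPM of Mmp25. Another P60 cell, of capture 31, held 26.6% of the Adam8 reads at 37886 CPM. Across the 164 deeper cells the median level was 1226 CPM for Retnlg, 75.3 for Mmp9, 13.9 for Mmp8, 1.54 for Adam8 and 0 for Padi4 and Mmp25.

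Retnlg, Mmp8 and Mmp9 were low in cells with basophil or precursor markers. Adam8 was less set apart in the basophil marker cells, and Padi4 in the precursor marker cells. In the 17 deeper cells with 10 reads of at least 3 basophil markers, the median level of Retnlg was 2.38 CPM, against 2122 CPM in the other 147 cells, and after thinning 35.3% of the 17 cells had a Retnlg read, 17.6% a Mmp8 read, 17.6% a Mmp9 read, 29.4% an Adam8 read and 5.88% a Padi4 read. Mmp25 had a read in 0 of the 17 cells, which allows a share of up to 17.6%. Median depth was 1838531 reads on genes in the basophil marker cells and 995092 in the others. The 17 cells came from 4 captures and the other 147 from 12. After thinning, an Adam8 read was found in 36.7% of the other 147 cells, and whether the reads in the 17 cells were background was not tested. In the 41 cells with 3 of 5 precursor markers (Mpo, Elane, Prtn3 and Ms4a3 among them), the medians were 8.16 CPM for Retnlg, 1.22 for Mmp8 and 0.388 for Mmp9, against 3100, 74.8 and 286 CPM in the other 123 cells. Padi4 was different from these 3 genes in that its thinned share was 17.1% in the 41 cells and 17.9% in the others. The 41 cells came from 7 captures and the other 123 from 12, with median depths of 1810799 and 870631 reads on genes. Both comparisons pooled cells over captures, and the part of the capture in them was not tested.

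The captures differed widely in every gene. Across the 8 P60 captures, Mmp8 ran from 0 CPM in capture 17c through a median of 652 to 2461 CPM in capture 40, and at P120 it was 27.5 CPM in capture 32, 1980 in 38, 2753 in 28 and 5570 in 36. At P120, 3 captures lay above the P60 median and 1 lay below 7 of the 8 P60 captures, so the ages overlapped. Retnlg ran from 352 CPM in capture 10c through a median of 5402 to 20483 CPM in capture 20c at P60, and was 1150, 8865, 10142 and 24706 CPM in captures 32, 38, 28 and 36 at P120. Captures 20c and 36, the highest in Retnlg at either age, had 3.23 and 189 CPM of Camp, but captures 17c and 21c, with 3.01 and 2.14 CPM of Camp, were low in Retnlg, with 1921 and 1300 CPM.

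**Figure D1:**
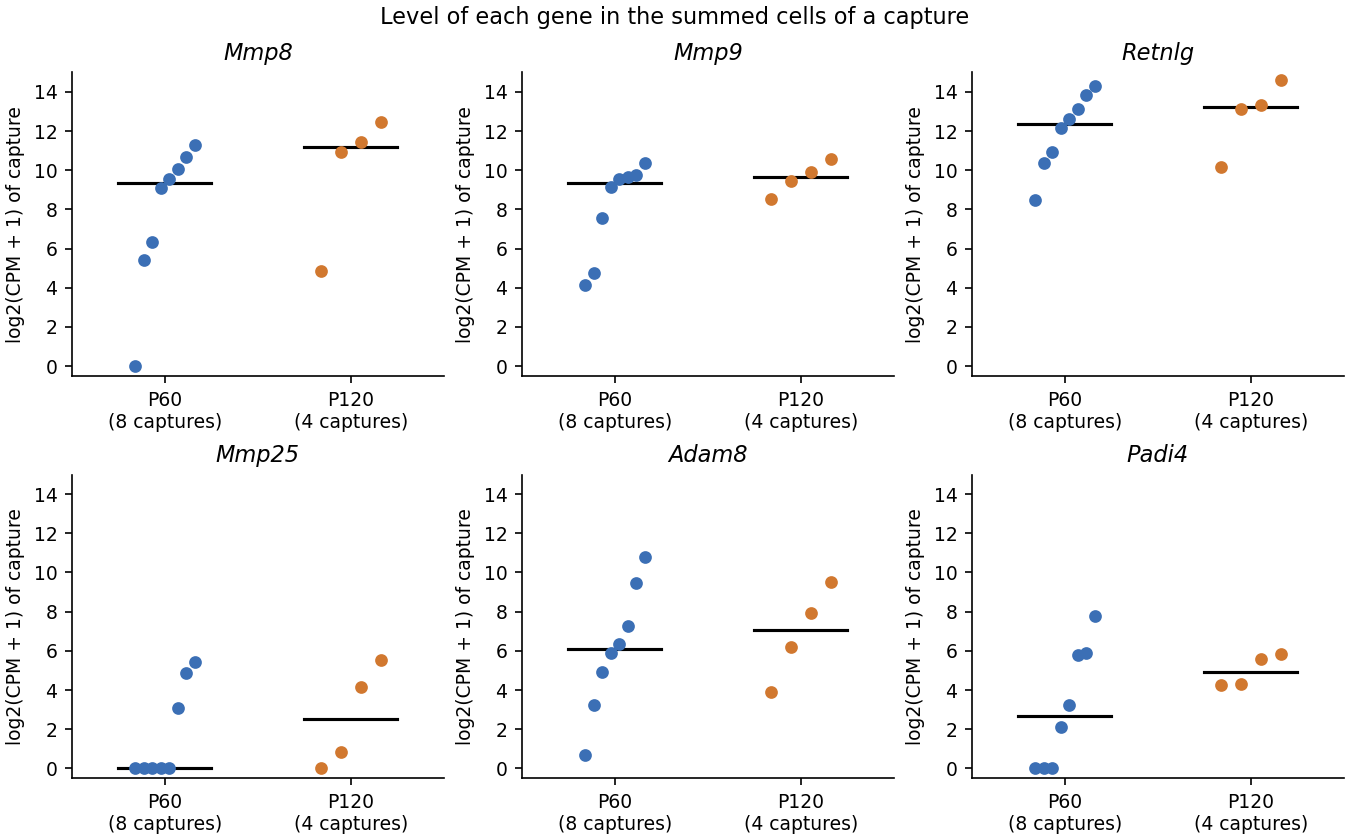
Level of each gene in the summed cells of a capture, as log2(CPM + 1), with 8 P60 captures in blue and 4 P120 captures in orange, points in order of level and a line at the median. The ages overlap for all 6 genes, and 1 P120 capture lies far below the other 3 for Mmp8 and Retnlg.

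Mmp9, like Retnlg and Adam8, had reads in every capture. It ran from 16.8 CPM through a median of 658 to 1306 CPM at P60, and was 371, 688, 970 and 1538 CPM in captures 38, 32, 28 and 36 at P120. Adam8 ran from 0.602 CPM through a median of 68.7 to 1772 CPM at P60, and was 14.1, 72.7, 240 and 717 CPM in captures 32, 38, 28 and 36. Padi4 had no read in 3 P60 captures, a median of 5.89 CPM and 216 CPM in capture 40, and was 17.8, 18.9, 46.7 and 56.5 CPM in captures 32, 38, 36 and 28 at P120. Mmp25 had no read in 5 P60 captures or in P120 capture 32, and reached 42.5 CPM at P60 and 45.1 CPM at P120. Captures without Mmp25 or Padi4 reads were mostly those with few cells, 3 to 13 cells in the case of the P60 captures, while capture 32 had 27. Those P60 captures were also all sequenced in the same run, so cell number and run cannot be told apart there.

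To compare the ages, counts were summed per capture and tested with edgeR's quasi-likelihood test over 8346 genes, of which 10 (0.120%) passed an adjusted p of 0.05. None of the 6 genes was among them, and 0 had an unadjusted p below 0.05 (443 genes did), while DESeq2 called 8 genes, none of them among the 6, and gave no p for Adam8. Mmp8 had the largest difference, with a log2 fold change of 2.30 ± 1.26 (SE) at P120 against P60 and an edgeR adjusted p of 0.980. The log2 fold changes of the others were 1.59 ± 2.13 for Mmp25, 1.19 ± 1.17 for Retnlg, 1.10 ± 1.32 for Mmp9, 0.28 ± 1.42 for Adam8 and 0.14 ± 1.98 for Padi4, each with an edgeR adjusted p of 1.0, beside a median of 0.26 over all genes tested. All 6 estimates were positive, but without P120 capture 36, the capture with the highest Mmp8, Mmp9, Retnlg, Mmp25 and Adam8 at that age, only Mmp8 stayed positive at 0.68, and Adam8 was at −2.16 and Mmp25 at −1.18. The levels over all cells of an age, in which captures with more reads weigh more, were 1609 CPM at P60 and 1996 at P120 for Mmp8, 7909 and 8365 for Retnlg, 866 and 794 for Mmp9, 369 and 173 for Adam8, 106.8 and 35.6 for Padi4 and 25.95 and 10.5 for Mmp25. Each estimate was smaller than 2 SE. The SEs were calculated back from the edgeR test statistic, so this repeats the result of the test, and no difference was called over the spread between captures. Of the 8 P60 captures, 6 and no P120 capture were sequenced in 1 run, and among the 2 P60 and 4 P120 captures of the other runs the log2 fold change was 1.06 for Mmp8 and −1.52 for Padi4, with 0 of the 6 genes called.

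Across the 164 deeper cells the levels of Mmp8, Mmp9 and Retnlg went together. Spearman's correlation was 0.74 for Mmp8 and Retnlg, 0.71 for Mmp9 and Retnlg and 0.63 for Mmp8 and Mmp9. These correlations are a description over cells that share captures and differ in depth. Within the 7 captures that had at least 10 deeper cells, the correlation of Mmp8 and Retnlg averaged 0.69 ± 0.10 (SD), from 0.51 to 0.83, that of Mmp8 and Mmp9 averaged 0.63 ± 0.11 and that of Mmp9 and Retnlg 0.63 ± 0.24, and all 3 pairs were positive in 7 of 7 captures. After thinning to 50000 reads the values were 0.74, 0.60 and 0.66, respectively.

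Adam8 joined this group more loosely. Its correlation was 0.46 with Mmp8, 0.43 with Mmp9 and 0.43 with Retnlg, positive in 6 of 7 captures for each. Mmp25 and Padi4 were most like each other, with a correlation of 0.40 over all cells and a capture mean of 0.32 ± 0.26 (5 of 6 captures positive, since capture 32 had no Mmp25 read). Padi4 had correlations of 0.14, 0.13, 0.14 and −0.03 with Mmp8, Mmp9, Adam8 and Retnlg, and Mmp25 had 0.20, 0.18, 0.08 and 0.14. The median over the 15 pairs of the 6 genes was 0.20.

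**Figure D2:**
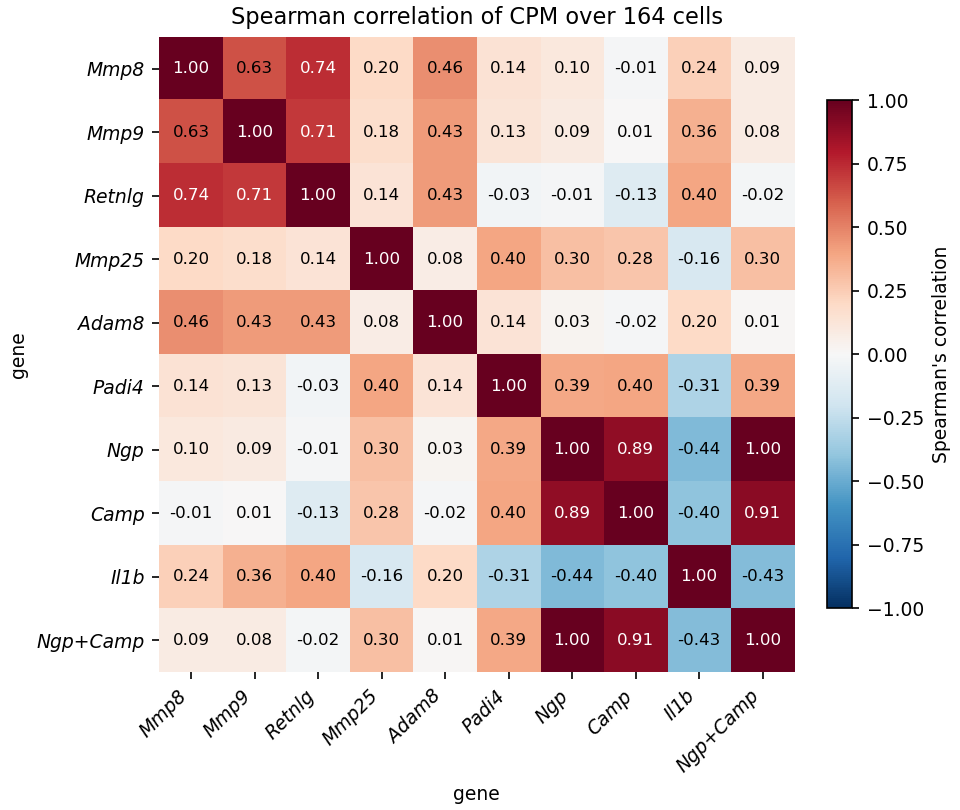
Spearman's correlation of CPM over 164 cells for the 6 genes, Ngp, Camp, Il1b and the sum of Ngp and Camp, with red for positive and blue for negative values. Mmp8, Mmp9 and Retnlg form a block of 0.63 to 0.74, Mmp25 and Padi4 share 0.40, and Padi4 stands at −0.31 with Il1b.

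Compared with the other genes, ranked by Spearman's correlation over the same cells (3787 genes with a read in at least 25% of them), the nearest genes to Mmp8 were Retnlg, Mmp9 and Fpr1 (formyl peptide receptor 1, correlation 0.57). Those nearest to Mmp9 were Retnlg, Mmp8 and S100a6 (0.62), and those nearest to Retnlg were Mmp8, Mmp9 and S100a6 (0.64). Adam8 was nearest to Trem1 (a receptor of myeloid cells, 0.47), Mmp8 and Slfn1 (0.46). Mmp25 was nearest to Padi4, Fcgr2b (0.38) and Lcn2 (lipocalin of specific granules, 0.37), and Padi4 to Glipr2 (0.44), B430306N03Rik (0.43) and Cd177 (a neutrophil surface protein, 0.43). For Mmp8, Mmp9 and Retnlg, the 2 nearest genes were thus the other 2 of the 3. By the mean correlation with all 6 genes, S100a6, Fpr1, S100a9, Trem1 and Fpr2 ranked highest, with 0.42 for S100a6, and Gm9800, Rpl14-ps1, Rpl14, Rps29 and Rpl10a lowest, with −0.34 for Gm9800.

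The relation to Ngp and Camp, the specific granule genes, divided the 6 genes over all cells, and less clearly within captures. Ngp and Camp themselves went together across cells (correlation 0.89), so their sum was used. The correlation with the sum was 0.39 for Padi4 and 0.30 for Mmp25, and 0.09 for Mmp8, 0.08 for Mmp9, 0.01 for Adam8 and −0.02 for Retnlg. The genes also differed in their median correlation over all 3788 genes ranked. This median was 0.10 for Padi4, 0.05 for Mmp25, −0.08 for Adam8, −0.17 for Mmp8, −0.22 for Mmp9 and −0.26 for Retnlg. How far the division goes beyond this difference was not tested. Within captures, Mmp25 averaged 0.24 ± 0.16 and was positive in 5 of 6 captures, and Padi4 averaged 0.22 ± 0.29 and was positive in 5 of 7. Mmp8 and Mmp9 were not clearly apart from these, with 0.19 ± 0.34 (positive in 6 of 7 captures) and 0.14 ± 0.22 (5 of 7). Retnlg averaged 0.05 ± 0.38 and Adam8 −0.10 ± 0.31. Each of these 4 genes had captures on either side of 0, and Retnlg ran from −0.43 in capture 31 to 0.57 in capture 28. Depth moved with Padi4 (correlation 0.28 with reads on genes) and Mmp25 (0.24), and its part in these relations was not tested beyond the thinning, after which the correlation with the sum was 0.35 for Padi4 and 0.21 for Mmp25.

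When the 164 cells were ordered by the sum of Ngp and Camp, Mmp8, Mmp9 and Retnlg had their highest medians in the middle. In the lowest 54 cells (sums from 3.21 CPM) the medians were 4.45 CPM for Mmp8, 5.30 for Mmp9 and 1036 for Retnlg. In the middle 55 cells (70.2 to 17149 CPM) they were 74.4, 240 and 2273 CPM, and in the highest 55 cells 39.8, 114 and 1011 CPM. Spreads within each set were wide, with quartiles of 57.8 and 30061 CPM for Retnlg in the middle 55 cells. Mmp25 had a read in 0 of the lowest 54 cells, which allows a share of up to 5.56%, and in 18.2% of the middle and 27.3% of the highest cells, and after thinning the shares of the latter sets were 9.09 and 12.7%. Padi4 had a read after thinning in 5.56% of the lowest, 7.27% of the middle and 40.0% of the highest cells. The highest 55 cells were also the deepest, with a median of 1800363 reads on genes against 656510 in the middle and 1082919 in the lowest, and 14 of them came from capture 40. Without capture 40, the correlation of Padi4 was 0.35 with the sum of Ngp and Camp and −0.25 with Il1b.

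**Figure D3:**
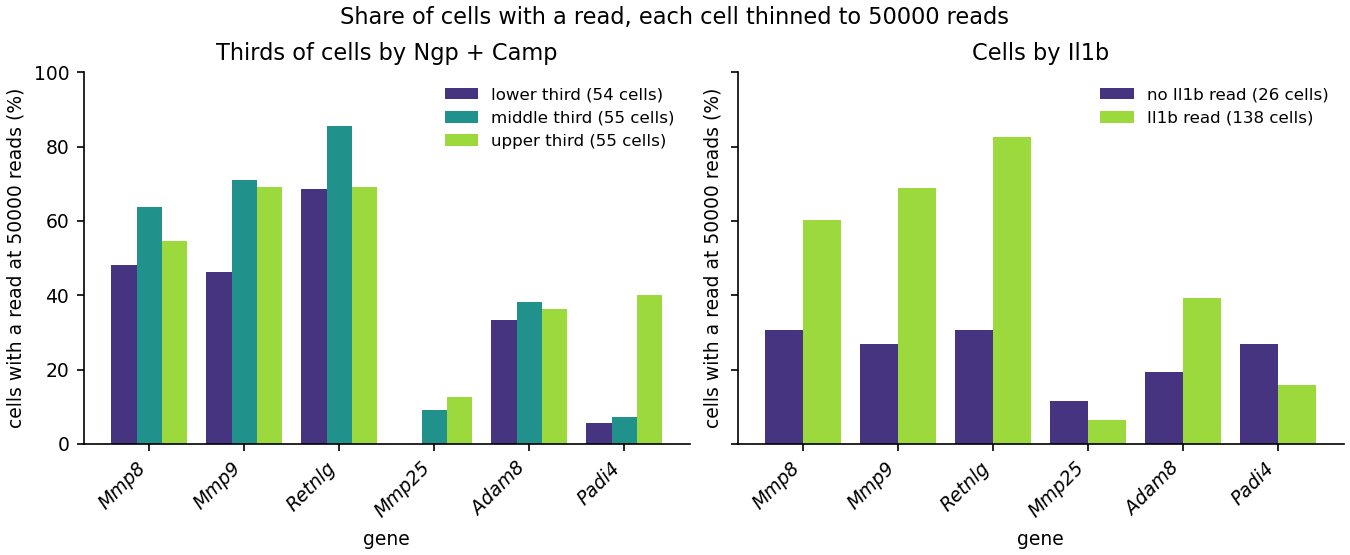
Percent of the 164 deeper cells with a read of each gene after thinning to 50000 reads, on the left for the 54, 55 and 55 cells lowest, middle and highest in Ngp + Camp, on the right for 26 cells without and 138 cells with an Il1b read. Padi4 reaches 40.0% in the highest set, Mmp25 is at 0 in the lowest, and Retnlg goes from 30.8% without Il1b to 82.6% with it.

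With Il1b, Padi4 and Mmp25 had the lowest correlations of the 6 genes, where they had the highest with Ngp and Camp. The correlation was 0.40 for Retnlg, 0.36 for Mmp9, 0.24 for Mmp8 and 0.20 for Adam8, and −0.16 for Mmp25 and −0.31 for Padi4. Padi4 was negative in 6 of 7 captures, with a mean of −0.22 ± 0.22, and Retnlg positive in 6 of 7, with a mean of 0.31 ± 0.32. Mmp9 was positive in 4 captures, from 0.35 to 0.73, and close to 0 in the other 3, so its value over all cells was not shared by every capture. Of the 3787 genes ranked for Padi4, Il1b was the last, while Camp ranked 15 and Ngp 22. Il1b was lower in deeper cells (correlation −0.33 with reads on genes, −0.55 with genes detected), while Padi4 was higher (0.28 with reads on genes). After thinning, the correlation with Il1b was −0.25 for Padi4 and −0.07 for Mmp25. It was 0.37 for Retnlg, 0.29 for Mmp9, 0.19 for Mmp8 and 0.17 for Adam8. The part of depth in these relations was not tested further.

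**Figure D4:**
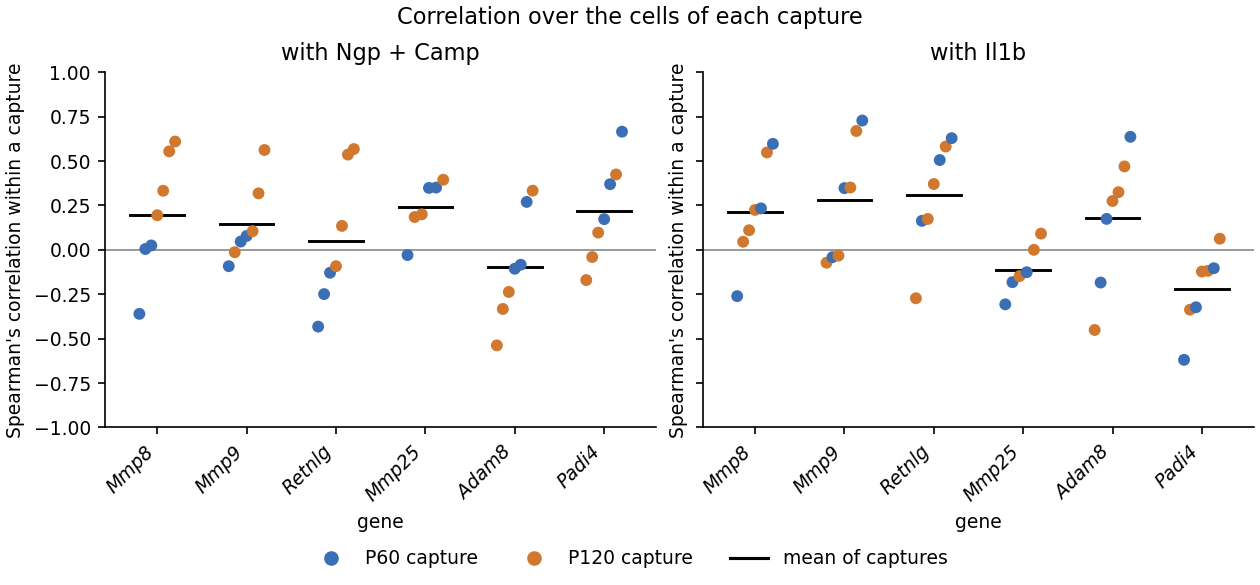
Spearman's correlation of each gene with Ngp + Camp (left) and with Il1b (right) over the cells of each of 7 captures, P60 in blue and P120 in orange, with a line at the mean of the captures (6 captures for Mmp25). Padi4 has a mean of 0.22 with Ngp + Camp and −0.22 with Il1b, and the captures of most genes lie on either side of 0.

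The 26 deeper cells without an Il1b read had medians of 1.59 CPM for Retnlg, 0.202 for Mmp9 and 0.440 for Mmp8, and the 138 cells with one had 2272, 129 and 64.7 CPM. The means of Mmp8 and Adam8 went the other way, with 2351 and 1489 CPM without an Il1b read and 1528 and 308 CPM with one, while the upper quartiles in the 26 cells were 31.1 and 3.14 CPM. After thinning, a Retnlg read was found in 30.8% of the former, near the 35.3% of the basophil marker cells, and in 82.6% of the latter. Padi4 went the other way, with 26.9 and 15.9%. The 26 cells had a median of 3672 genes with a read against 2007 in the 138 cells, and 11 of them came from capture 40, where Il1b was at 21.5 CPM, the lowest of all captures. Il1b and the sum of Ngp and Camp had a correlation of −0.43, which was negative in 5 of 7 captures.

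**Figure D5:**
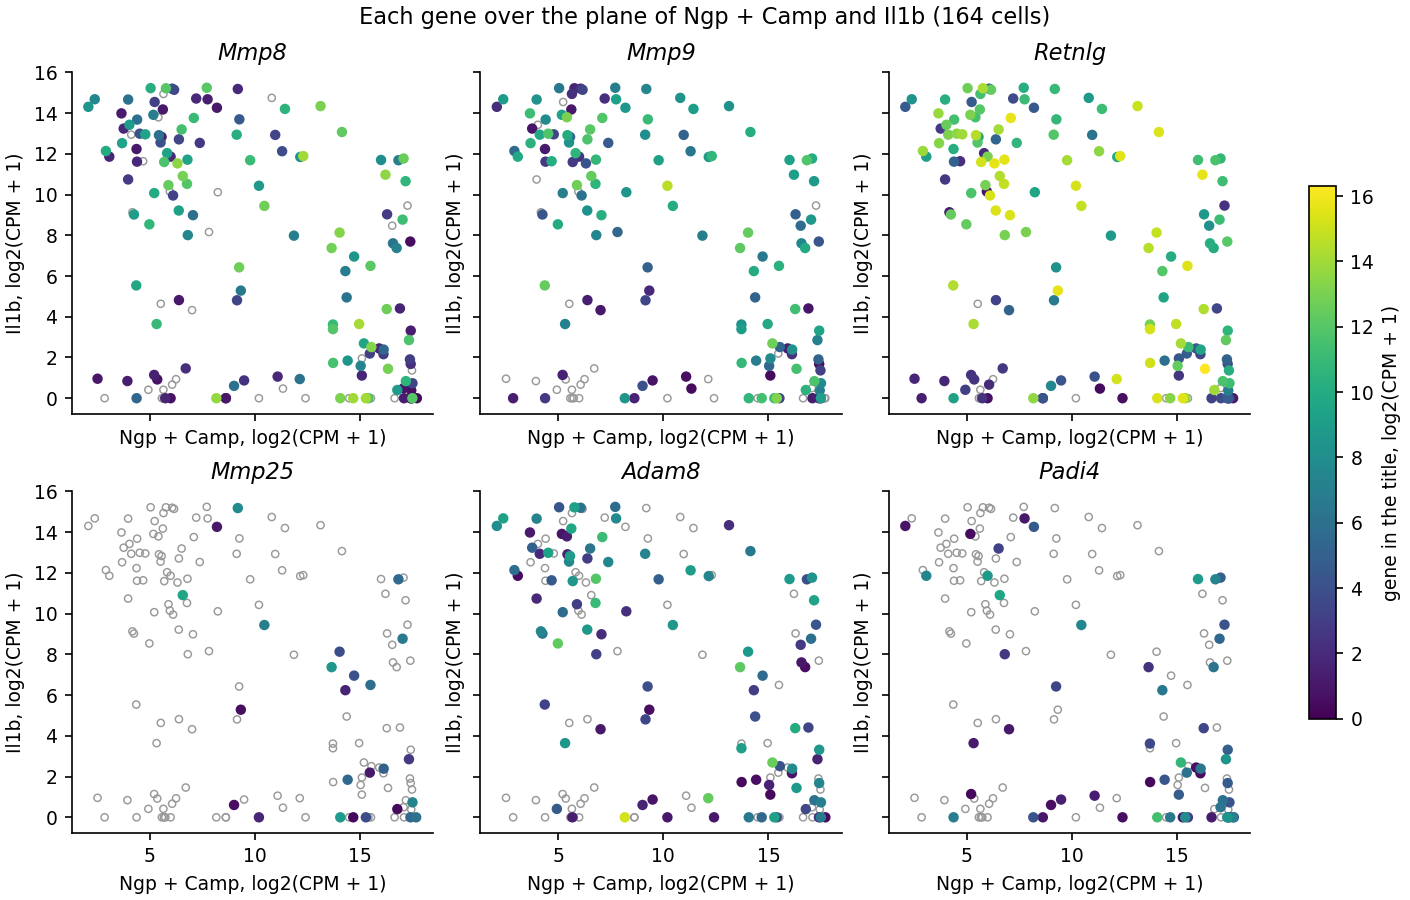
The 164 deeper cells by the sum of Ngp and Camp (x axis) and Il1b (y axis), both in log2(CPM + 1), colored by the log2(CPM + 1) of the gene in each title, with open circles for cells without a read. Retnlg, Mmp8 and Mmp9 are present along the upper left and at the lower right, and Mmp25 and Padi4 lie mainly at the lower right, where Ngp and Camp are high.

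Other measures of a cell moved with the genes. Retnlg was lower in cells with more genes detected (correlation −0.56, and −0.60 with genes counted after thinning), as was Mmp9 (−0.47 and −0.47), while Padi4 was higher in them (0.30 and 0.25). The normalized GFP intensity, a score from images of the captured cells, had a correlation of 0.37 with Retnlg, 0.36 with Mmp9, 0.34 with Mmp8, 0.15 with Adam8, 0.08 with Mmp25 and −0.09 with Padi4. The correlation with Lfng lay between 0.00 and 0.14 for all 6 genes. The part of these measures in the relations among the genes was not tested.

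Of the relatives of the 6 genes, the 15 other matrix metalloproteinases in the list were nearly absent over all cells, with none at more than 1 CPM. They had reads in 10 cases and summed to 1.75 CPM, with 36.4 CPM in the highest P60 capture and none tested for age. Of their inhibitors, Serpinb1a, a protease inhibitor of neutrophils, was at 994 CPM and Timp2 at 149 CPM, and Timp1 had no read. Padi2 reached 13.2 CPM as the next member of its family, and Retn and Retnlb, the relatives of Retnlg, 19 and 9.20 CPM. Adam10 (335 CPM), Adam17 (110 CPM) and Adam19 (84.6 CPM) were the ADAM genes with the most reads beside Adam8 (268 CPM), and Adam19 had correlations of 0.41 with Mmp8, 0.41 with Retnlg and 0.42 with Adam8. None of these lists had a gene called between the ages (0 of 3 inhibitors, 0 of 4 ADAM genes, 0 of 1 Padi gene and 0 of 1 resistin gene tested), beside 0.120% of all genes tested.

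The lists of granule genes were compared by their median correlation with each gene. The median correlation over the 7 primary granule genes was −0.23 with Mmp8, −0.35 with Mmp9, −0.33 with Retnlg and −0.14 with Adam8, and 0.07 with Mmp25 and 0.11 with Padi4. Over the 10 specific granule genes it was 0.39 with Padi4 and 0.26 with Mmp25, and between −0.02 and 0.11 with the other 4 genes. Over 16 late neutrophil genes, among them Il1r2 (a decoy receptor of interleukin-1) and Ccl6 (a chemokine), it was 0.37 with Retnlg, 0.33 with Mmp9, 0.29 with Mmp8, 0.29 with Adam8, 0.08 with Mmp25 and 0.00 with Padi4. Over 9 other genes of gelatinase granules and their membrane, among them Cybb and Cyba (subunits of the NADPH oxidase), it was 0.25 with Padi4, 0.10 with Mmp25 and 0.07 with Adam8, and −0.03 with Mmp8, 0.01 with Mmp9 and 0.00 with Retnlg. The same medians over all 3788 genes were −0.26 for Retnlg, −0.22 for Mmp9, −0.17 for Mmp8, −0.08 for Adam8, 0.05 for Mmp25 and 0.10 for Padi4. Of 18 late neutrophil genes, 10 specific granule genes, 10 other gelatinase granule genes and 7 primary granule genes tested between the ages, 0 were called. Over all genes tested 10 of 8346 (0.120%) were called, so a count of 0 does not set these lists apart.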

How the data were processed

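Single GFP-positive cells were sorted, captured and sequenced as full-length cDNA. The authors deposited raw read counts per gene, made by alignment with STAR to GRCm38 (mm10 per the labels) after removal of endothelial cells and outliers, and a normalized GFP intensity per cell, a score whose scaling is not given in the sources used here. The members and the gene lists were chosen with earlier results of these data known. Gene symbols were matched through GENCODE vM21 (48349 of 48709 identifiers), and no doublet caller was run. The captures, 8 at P60 and 4 at P120, were the replicates; where a capture's pools are not known to be separate animals, p-values measure only the spread between captures. Counts were summed per capture and tested with edgeR 4.0.16 (TMM, filterByExpr, quasi-likelihood, Benjamini-Hochberg) in R 4.3.3, with DESeq2 1.42.0 and limma 3.58.1 as alternatives. The edgeR fit alone was also run on simulated counts. Correlations used cells with at least 50000 reads on genes, which were also thinned to that number (numpy 2.4.6, scipy 1.17.1, pandas 2.3.3, Python 3.11.15). Depth ran from 41 to 5361476 reads per cell. The genes named are the 6 members, Ngp, Camp, Il1b, the 3 genes most like each member, the 5 genes highest and lowest in mean likeness, and examples from the lists.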

Additional observations from a re-analysis of the deposited data

Results flagged for a closer look

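Among 24 sets of capture values (6 genes, 2 ages, level and share of cells), 3 captures stood far from the others of their age by Dixon's criterion. Chance meets this criterion in about 1 of 20 sets of normally distributed values. The CPM of captures were skewed and the sets shared captures, so the rate here is not known. Adam8 was at 1772 CPM in capture 20c (P60), against 693 CPM in the next highest of 8 captures, and without the cell that held 50.8% of its Adam8 reads the capture was at 1038 CPM. Padi4 was at 216 CPM in capture 40 (P60), against 58.6 CPM in the next, and without the cell that held 83.9% of its Padi4 reads the capture was at 37.3 CPM. Mmp9 had a read in 15.4% of the cells of capture 10c (P60), against 60% in the next lowest capture, and the median depth of that capture was 451 reads on genes.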

How the results depend on the processing

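Under all 20 other ways of making the age comparison, leaving out each capture included, 0 of the 6 genes were called (DESeq2 gave no p for Adam8), although the number of genes called in all ran from 0 to 934 (934 without a filter on low counts, 830 of them higher at P120, against 10 of 8346). In the 119 alternative estimates of a gene's log2 fold change, 25 turned negative, and the cause was not tested. With DESeq2, Padi4 was at −0.38. With limma on the mean log2(CPM + 1) of cells, Retnlg was at −0.084 and Adam8 at −0.12. Without the filter, Adam8 was at −0.035 and Padi4 at −0.065. In cells with at least 50000 reads, Adam8 was at −0.34 and Padi4 at −0.14, and in thinned cells Adam8 was at −1.61 (Mmp25 was too low to be tested). With the sequencing run in the model, Mmp25 was at −0.24 and Padi4 at −1.49. Without the captures of the run that held P60 cells only, they were at −0.30 and −1.52. Upper-quartile factors could not be computed with capture 10c, and without it, a fit added after seeing the data, Mmp9 was at −0.051, Retnlg at −0.37 and Adam8 at −1.12, beside a median of −0.71 over all genes. Leaving out 1 capture at a time gave ranges of 0.68 to 2.71 for Mmp8, −0.14 to 1.43 for Mmp9, −0.44 to 1.65 for Retnlg, −1.18 to 2.36 for Mmp25, −2.16 to 1.61 for Adam8 and −0.73 to 1.23 for Padi4. Leaving out capture 36 turned 5 genes negative, and leaving out 17c, 19c, 20c or 21c turned Padi4, and 17c also Adam8, slightly negative. All 255 alternative correlations, those with Ngp and Camp or Il1b and the medians, lay within 1 SD (over captures) of the value given. This was a loose bound, since the SDs for single genes ran from 0.14 to 0.38 and some exceeded the value itself. Values near 0 changed sign, such as Mmp8 with Ngp and Camp (−0.01 to 0.15 without 1 capture). Single pairs of the 6 genes were not among the 255. Without 1 capture the median of the 15 pairs ran from 0.17 to 0.24, that with Ngp and Camp from −0.01 to 0.14 and that with Il1b from 0.16 to 0.26. Shares of cells depended on the minimum. With at least 10 reads they were 46.4% for Mmp8, 46.9% for Mmp9, 74.4% for Retnlg, 7.58% for Mmp25, 29.9% for Adam8 and 15.6% for Padi4, and thinned to 50000 reads 55.5, 62.2, 74.4, 7.32, 35.98 and 17.7%. No paired analysis was possible because the captures carry no number shared between the ages.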
